A study of Mus musculus with 18 samples.

Results

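The genes described are Foxp3, the 4 Ikaros family genes Ikzf1, Ikzf2, Ikzf3 and Ikzf4, the 3 Runx genes Runx1, Runx2 and Runx3, and Cbfb. They were chosen by name, and all 9 were present among the 12547 genes of the deposited expression table. RNA was sequenced from mouse CD4 T cells that lacked Id3 (Id3-KO) and from wild-type (WT) cells, and the design names them CD4 Th1 cells. The 18 libraries fall into 6 groups of 3, namely KO set 3, KO set 5, KO set 6, WT set 3, WT set 5 and WT set 6. What the set numbers stand for is not given in the labels. Contrast names in the authors' deposited table carry the number 24 for set 3 and 96 for sets 5 and 6, without a unit.

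Every group started from naive CD4 T cells, which were activated with beads coated with antibodies to CD3 and CD28 and grown in IMDM with serum, IL2, IL12 and an antibody against IL4. The KO and WT cells therefore shared a medium that favours the Th1 fate. The sources used here do not give the way Id3 was deleted, the strain, the age or the number of mice. The labels do not tell whether replicates of a group came from different animals, so a p-value reflects only the variation among these libraries, which may be technical. Foxp3, Ikzf2 and the other genes were measured in bulk RNA, in which fewer cells of a type and less RNA per cell cannot be told apart.

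Id3 is an inhibitor of E proteins, the basic helix-loop-helix factors that bind E-box sequences and guide T cell development. Foxp3 is the lineage factor of regulatory T cells. Ikaros proteins are zinc finger factors that join one another and recruit corepressor complexes to control lymphocyte genes. Runx proteins bind DNA together with Cbfb, and in CD4 T cells they repress or activate lineage genes such as Cd4, Il4, Ifng and Foxp3 itself.

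Values are log2 expression as deposited, and a difference of 1 is a change of 2-fold. Sorted values were almost identical among the libraries of each group, so the depth of a library is unknown and the spread within a group is compressed. Id3 itself was at most 5.63 in the 9 KO libraries and at least 8.85 in the 9 WT libraries. In KO cells of sets 5 and 6 replicate 2 had the highest Id3 of its group, at 5.63 and 4.97. The whole table was shifted between genotypes: for the median gene KO minus WT was -0.07 in set 3, 0.39 in set 5 and 0.42 in set 6. Each change is therefore also given after the libraries were centred on a common median, called the centred difference here. A gene counts as higher or lower where the Benjamini-Hochberg adjusted p of limma, taken over all 12547 genes, was under 0.05.

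All 7 CD4 T cell markers sought were measured. In KO cells 4 were lower in set 3, and 6 were higher in set 5 and 6 in set 6. Over all genes 6.92% were higher and 4.46% lower in set 3, 50.1% and 8.08% in set 5, and 53.9% and 4.59% in set 6. Of the 5 Th1 markers, 2 were higher in set 3, 1 was higher and 1 lower in set 5, and 1 was higher and 3 lower in set 6. Of the 3 macrophage and monocyte markers measured, 1 was higher in KO cells of set 3, 2 in set 5 and 2 in set 6. Their linear sum was 126 to 188 in KO and 65.9 to 91.8 in WT libraries of set 3, 645 to 896 in KO and 143 to 193 in WT libraries of set 5, and 1235 to 1442 in KO and 337 to 643 in WT libraries of set 6. Cd68 carried most of it in set 5, at a mean log2 level of 9.50 in KO and 7.25 in WT cells, while Lyz2 averaged 1.38 in KO and 1.06 in WT cells. Adgre1, the other marker measured, averaged 4.41 in KO and 1.70 in WT cells of set 5, and 6.34 and 2.39 in set 6. The part of these markers in the results was not tested.

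In set 3 the loss of Id3 went with 1 higher member, Runx2, and 1 lower member, Ikzf1. In set 5, 6 of the 9 members were higher in KO cells, and in set 6, 7 were higher and none lower. Over all genes 11.4% were called in set 3, 58.2% in set 5 and 58.5% in set 6. Higher calls made up 6.92%, 50.1% and 53.9% of all genes in sets 3, 5 and 6, and lower calls 4.46%, 8.08% and 4.59%. With 9 members, these counts lie near the shares of all genes. On the centred scale 3 members were higher in set 5 and in set 6, Ikzf3, Ikzf4 and Runx1 in both, and 1 was lower in each, Ikzf1. Centred calls covered 10.6% of all genes in set 3, where the same 2 members were called, 49.6% in set 5 (24.9% higher and 24.7% lower) and 37.2% in set 6 (18.8% higher and 18.5% lower). The values of KO and WT libraries did not overlap for 3 members in set 3, against 29.9% of all genes. The same held for 7 members in set 5, against 64%, and for 7 in set 6, against 65.1%. The authors' deposited table has larger adjusted p for small changes such as that of Cbfb in set 5 (0.163, against 0.000115 by limma here). It has adjusted p under 0.05 for 2 members in set 3, 4 in set 5 and 6 in set 6. The shares of all genes in that table are 3.91%, 37.8% and 35.1%.

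**Figure D1:**
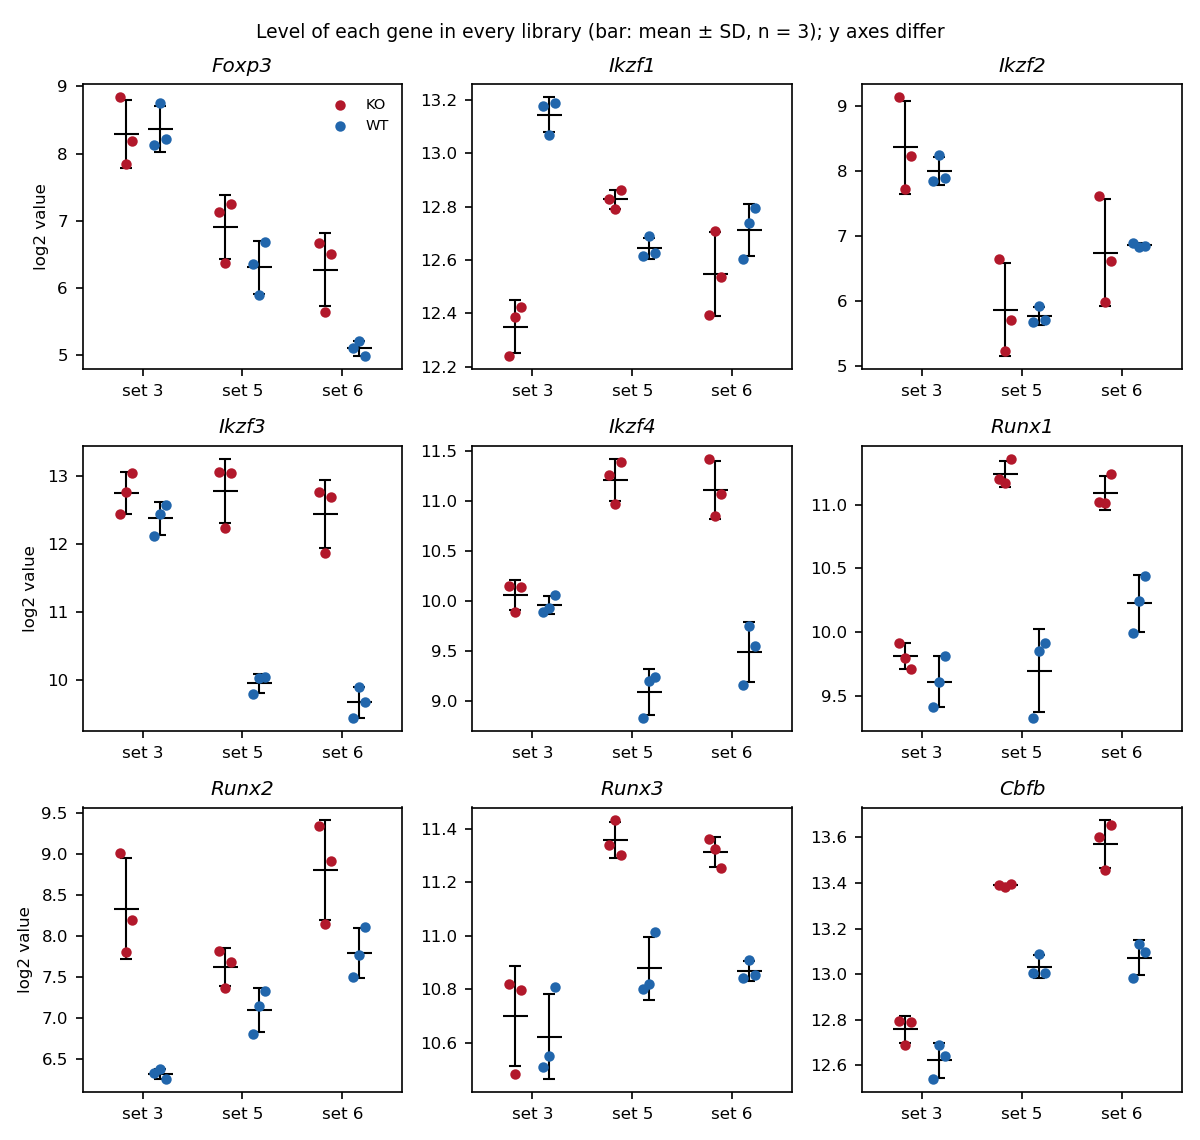
Deposited log2 level of each of the 9 genes in each library (points) with the mean of each group of 3 (bars), KO beside WT in sets 3, 5 and 6. For Ikzf3 the WT libraries of sets 5 and 6 lie between 9.45 and 10.05, below all other libraries, which lie between 11.87 and 13.06.

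The plot of levels by library shows each gene on its own axis, since levels of different genes are not comparable without their lengths. The forest plot of KO minus WT differences sets the 9 genes beside the median of all genes in each set.

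**Figure D2:**
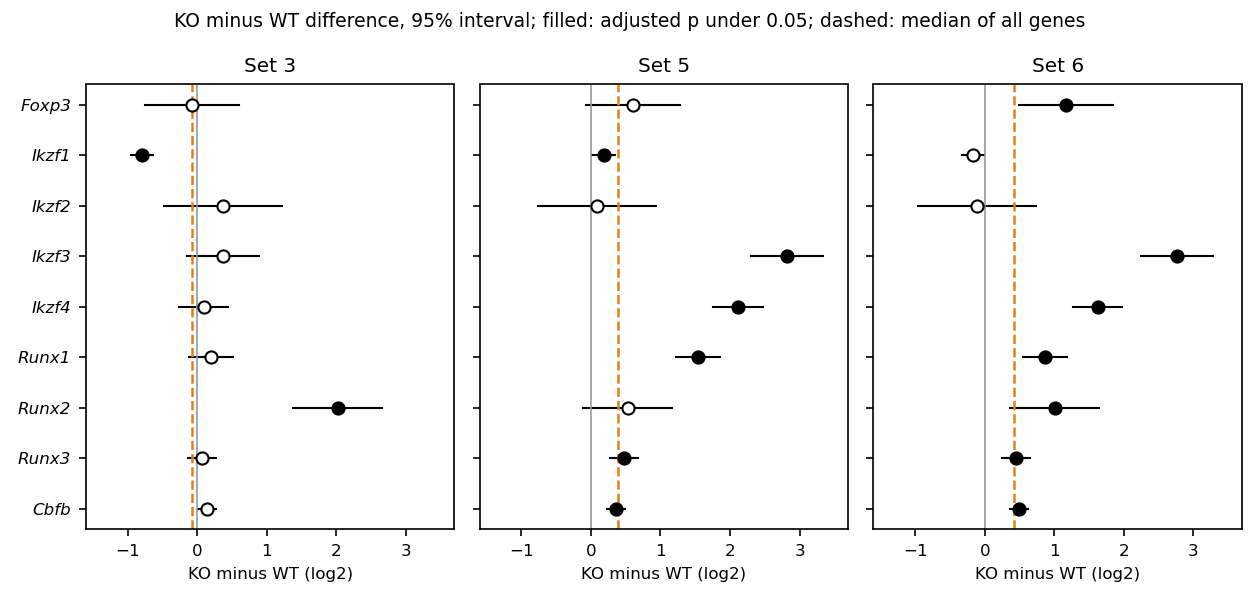
KO minus WT difference (log2) with its 95% interval for each gene in sets 3, 5 and 6; filled points have an adjusted p under 0.05 and the dashed line is the median of all genes. Ikzf3, Ikzf4, Runx1, Foxp3 and Runx2 stand to the right of that median in sets 5 and 6, whereas Runx3 and Cbfb lie on or near it. Of these genes only Ikzf3, Ikzf4 and Runx1 were also called higher after centring in these sets.

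Foxp3 was present in every library and was highest in set 3 in both genotypes. In set 3 it measured 8.83, 7.85 and 8.19 in KO replicates 1 to 3, against 8.13, 8.76 and 8.22 in WT replicates. The set 5 libraries held 7.13, 6.37 and 7.25 in KO cells, against 6.36, 5.89 and 6.68 in WT cells. Set 6 levels were 6.66, 5.65 and 6.50 in KO cells, against 5.11, 5.21 and 4.98 in WT cells. KO and WT libraries overlapped in sets 3 and 5, and in set 6 every KO library lay above every WT library. The KO minus WT difference was -0.08 in set 3 (95% interval -0.75 to 0.60), 0.60 in set 5 (-0.07 to 1.28, adjusted p = 0.117) and 1.17 in set 6 (0.49 to 1.85, adjusted p = 0.00509), the last a 2.25-fold higher level. Centring reduced the set 6 difference to 0.76, which did not pass. Without KO replicate 2 the set 5 difference was 0.88 and passed.

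The order of the Foxp3 group means was WT set 3 (8.37), KO set 3 (8.29), KO set 5 (6.91), WT set 5 (6.31), KO set 6 (6.27) and WT set 6 (5.10). Neighbours in this order overlapped except for KO set 3 and KO set 5, and for KO set 6 and WT set 6. In set 5, relative to set 3, Foxp3 fell by 1.38 in KO cells (SE 0.32, adjusted p = 0.00102) and fell by 2.06 in WT cells (SE 0.32, adjusted p = 2.91e-05). Between sets 6 and 5 Foxp3 fell by 1.21 in WT cells (SE 0.32, adjusted p = 0.0498), and the difference in KO cells was -0.64 (95% interval -1.32 to 0.04). The WT call was lost in 14 of the 18 fits that each left out 1 library, all but those without KO set 3 replicate 1 or 2, KO set 5 replicate 2 or KO set 6 replicate 2. The difference ran from -1.42 to -1.02 over these fits. The WT difference passed with the replicate number as a block within each genotype, in a fit to sets 5 and 6 only (adjusted p = 0.011). That fit, also used for other genes below, was chosen after the data were seen. The KO effect was larger in set 6 than in set 3 by 1.25 (SE 0.45, adjusted p = 0.0309). That test was lost without KO set 3 replicate 2 or 3, KO set 6 replicate 1 or 3, WT set 3 replicate 2 or WT set 6 replicate 3, with values from 1.02 to 1.56, and on the centred scale.

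In the gene annotation, exons of Foxp3 overlap those of Ccdc22 and Ppp1r3f on the opposite strand. The libraries were strand-specific, but the sources used here do not give the strand setting of the counting. Reads of these genes may therefore not be fully apart. Exons of Flicr on the same strand and of Gm36995 on the opposite strand also overlap those of Foxp3. Neither was among the 12547 genes, and the strand does not tell reads of Flicr from those of Foxp3 where exons are shared. Ccdc22, a trafficking gene, was higher in KO cells by 1.46 in set 5 and by 1.49 in set 6, and its set 3 difference was -0.26. Ppp1r3f differed by -0.16, 0.56 and 0.79 in sets 3, 5 and 6. The part of these genes in the Foxp3 values was not tested.

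The summed level of the 9 regulatory T cell markers, on the linear scale of the deposited values, was 33546 to 51843 in KO and 32125 to 47014 in WT libraries of set 3. It was 65708 to 75802 in KO and 42649 to 45940 in WT libraries of set 5, and 71830 to 81216 in KO and 46545 to 52091 in WT libraries of set 6. The groups overlapped in set 3 and not in sets 5 and 6. Of these 9 markers, which include Foxp3 and Ikzf2, none was higher and 1 lower in KO cells of set 3, 4 were higher and 1 lower in set 5, and 5 were higher and 1 lower in set 6. Higher calls made up 6.92%, 50.1% and 53.9% of all genes in these sets, and lower calls 4.46%, 8.08% and 4.59%. The sums rest mostly on abundant markers such as Il2ra, the IL2 receptor alpha chain, which averaged 15.02 in KO and 14.76 in WT cells of set 5 on the log2 scale. In that set Tnfrsf18 averaged 14.35 in KO and 13.43 in WT cells, and Ctla4 13.42 and 11.42. Lrrc32 averaged 10.28 in KO and 10.35 in WT cells, and Nt5e, the marker called lower, 7.74 and 8.64.

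Ikzf1 encodes Ikaros, the founding member of its family. In set 3 it measured 12.24, 12.39 and 12.43 in KO libraries, against 13.18, 13.07 and 13.19 in WT libraries. The set 5 values were 12.83, 12.79 and 12.86 in KO cells, against 12.61, 12.69 and 12.63 in WT cells. Set 6 held 12.39, 12.71 and 12.54 in KO cells, against 12.60, 12.74 and 12.79 in WT cells. All KO libraries were below all WT libraries in set 3, above them in set 5, and the groups overlapped in set 6. In set 3 Ikzf1 fell by 0.79 in KO cells (SE 0.08, adjusted p = 1.09e-05), which is 1.73-fold higher in WT, and the centred difference was -0.77.

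The set 5 difference of Ikzf1, 0.18 (SE 0.08, adjusted p = 0.0483), was smaller than the shift of all genes. On the centred scale it was -0.21 and passed in the other direction. The uncentred call was lost in 12 of the 18 fits without 1 library, all but those without KO set 3 replicate 1 or 3, KO set 6 replicate 1 or 2, or WT set 6 replicate 1 or 3, with differences of 0.17 to 0.21. In set 6 the difference was -0.17 (95% interval -0.33 to -0.00, adjusted p = 0.0714) and the centred one was -0.58, which passed. Without KO replicate 2 or WT replicate 1 of set 6 the uncentred difference was -0.25 or -0.22 and passed. The KO effect on Ikzf1 was larger, in the positive direction, in set 5 than in set 3 by 0.98 (SE 0.11, adjusted p = 3.94e-06) and in set 6 than in set 3 by 0.63 (SE 0.11, adjusted p = 0.000197). Relative to all genes the set 6 minus set 3 value was 0.19, which did not pass.

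The sets moved Ikzf1 in opposite directions in the genotypes. In set 5, relative to set 3, it was higher by 0.48 in KO cells (SE 0.08, adjusted p = 2.8e-05) and fell by 0.50 in WT cells (SE 0.08, adjusted p = 2.22e-05). After centring the KO change was 0.09, which did not pass, and the WT change was -0.47. WT set 3 had the highest mean of the 6 groups, 13.14, and KO set 3 the lowest, 12.35. The 4 other groups lay between 12.55 and 12.83 and each overlapped its neighbour.

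Ikzf2 encodes Helios, an Ikaros protein of regulatory T cells and of activated T cells. Its libraries held 9.13, 7.72 and 8.23 in KO set 3, against 7.85, 8.24 and 7.89 in WT set 3. KO set 5 had 6.64, 5.23 and 5.71, against 5.67, 5.92 and 5.71 in WT set 5. KO set 6 had 7.62, 5.99 and 6.62, against 6.89, 6.84 and 6.84 in WT set 6. KO replicate 1 was the highest library of the 6 in every set and KO replicate 2 the lowest, so the WT values lay inside the KO range each time. No KO minus WT difference passed: 0.37 in set 3 (95% interval -0.48 to 1.22), 0.09 in set 5 (-0.76 to 0.94) and -0.11 in set 6 (-0.96 to 0.73). These intervals leave room for changes of up to 1.22 on the log2 scale. The sign turned without KO replicate 1 in set 3 (-0.02) and in set 5 (-0.30), and without KO replicate 2 in set 6 (0.26).

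Both genotypes had less Ikzf2 in set 5 than in set 3. It fell by 2.50 in KO cells (SE 0.40, adjusted p = 3.05e-05), which is 5.66-fold higher in set 3, and it fell by 2.23 in WT cells (SE 0.40, adjusted p = 0.000124), 4.68-fold higher in set 3. Set 6 minus set 5 was 0.88 in KO cells (adjusted p = 0.163) and 1.09 in WT cells (adjusted p = 0.155). Both passed in a fit to sets 5 and 6 only, with the replicate number as a block within each genotype. The adjusted p of that fit was 0.00692 in KO cells and 0.00504 in WT cells. From high to low the group means ran KO set 3 (8.36), WT set 3 (7.99), WT set 6 (6.85), KO set 6 (6.74), KO set 5 (5.86) and WT set 5 (5.77), and the one gap between neighbours without overlap was below set 3.

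Ikzf3 encodes Aiolos, which is abundant in lymphocytes and restrains Il2 in T cells. It had the largest KO minus WT differences among the 9 genes in sets 5 and 6. In set 3 it measured 12.44, 12.77 and 13.05 in KO libraries, against 12.12, 12.44 and 12.58 in WT libraries. The KO libraries of set 5 held 13.06, 12.24 and 13.04, against 9.80, 10.03 and 10.05 in the WT libraries. Those of set 6 held 12.77, 11.87 and 12.70, against 9.45, 9.90 and 9.68 in the WT libraries. The genotypes overlapped in set 3 and were far apart in sets 5 and 6. The difference was 0.37 in set 3 (95% interval -0.14 to 0.89, adjusted p = 0.341), 2.82 in set 5 (SE 0.24, adjusted p = 1.3e-07) and 2.77 in set 6 (SE 0.24, adjusted p = 2.55e-07). KO cells thus had 7.07-fold more Ikzf3 than WT cells in set 5 and 6.81-fold more in set 6, and the centred differences, 2.43 and 2.35, passed as well.

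The change between sets 3 and 5 was in WT cells. Set 5 minus set 3 was 0.03 in KO cells (95% interval -0.49 to 0.55), whereas Ikzf3 fell by 2.42 in WT cells (SE 0.24, adjusted p = 2.56e-07), 5.35-fold higher in set 3. Its KO effect was larger in set 5 than in set 3 by 2.45 (SE 0.35, adjusted p = 3.1e-05) and in set 6 than in set 3 by 2.39 (SE 0.35, adjusted p = 4.98e-05). Of all genes, 1.39% had a higher KO minus WT difference than Ikzf3 in set 5 and 1.40% in set 6. KO replicate 2, the KO library with the most Id3 in set 5 and in set 6, had the least Ikzf3 of its group both times. Without it the difference was 3.09 in set 5 and 3.05 in set 6. However, KO set 6 replicate 3 had Id3 at 4.46, near the 4.97 of replicate 2, and Ikzf3 at 12.70. In KO set 3, Id3 was 2.15, 3.35 and 3.64 in replicates 1 to 3, and Ikzf3 was 12.44, 12.77 and 13.05. KO replicate 2 was also the lowest KO library of Foxp3, Ikzf2, Ikzf4, Runx2 and Cbfb in sets 3, 5 and 6. For Ikzf1, Runx1 and Runx3 it was not the lowest in every set. A link of Id3 with Ikzf3 among KO libraries was not tested. The group means ran KO set 5 (12.78), KO set 3 (12.75), KO set 6 (12.44), WT set 3 (12.38), WT set 5 (9.96) and WT set 6 (9.68), and the one gap without overlap lay between WT set 3 and WT set 5.

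Aiolos is also made by B cells. The 7 B cell markers summed, on the linear scale, to 125 to 166 in KO and 47.5 to 59.2 in WT libraries of set 5, and to 87.3 to 195 in KO and 55.3 to 73.6 in WT libraries of set 6. The groups did not overlap in either set. Of the 7 markers, 1 was higher in KO cells of set 5 and none in set 6, against 50.1% and 53.9% of all genes. On the log2 scale the signalling subunits of the B cell receptor averaged, in set 5, 5.76 in KO and 4.69 in WT cells for Cd79a, and 5.33 in KO and 3.65 in WT cells for Cd79b. Ms4a1, a B cell surface protein, averaged 2.48 in KO and 1.33 in WT cells of set 5, and Cd22 3.69 in KO and 1.96 in WT cells. The part of these markers in the Ikzf3 results was not tested.

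Ikzf4 encodes Eos, an Ikaros protein that works as a partner of Foxp3 in regulatory T cells. In set 3 it measured 10.15, 9.89 and 10.14 in KO libraries, against 9.90, 9.93 and 10.06 in WT libraries. In set 5 the KO libraries held 11.26, 10.98 and 11.39, against 8.83, 9.20 and 9.25 in WT libraries. In set 6 they held 11.42, 10.85 and 11.07, against 9.17, 9.75 and 9.56 in WT libraries. As for Ikzf3, the genotypes overlapped in set 3 and were separate in sets 5 and 6. The difference was 0.10 in set 3 (95% interval -0.26 to 0.45), 2.12 in set 5 (SE 0.17, adjusted p = 5.6e-08) and 1.62 in set 6 (SE 0.17, adjusted p = 9.09e-07). These are 4.33-fold and 3.08-fold higher levels in KO cells of sets 5 and 6, and the centred differences were 1.73 and 1.21.

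Unlike Ikzf3, Ikzf4 moved in both genotypes between sets 3 and 5. Set 5 was higher than set 3 by 1.15 in KO cells (SE 0.17, adjusted p = 1.05e-05) and fell by 0.87 in WT cells (SE 0.17, adjusted p = 0.000224). For Ikzf4 the KO effect was larger in set 5 than in set 3 by 2.02 (SE 0.24, adjusted p = 6.5e-06) and in set 6 than in set 3 by 1.53 (SE 0.24, adjusted p = 8.65e-05). From high to low the groups ran KO set 5 (11.21), KO set 6 (11.11), KO set 3 (10.06), WT set 3 (9.96), WT set 6 (9.49) and WT set 5 (9.09). The 2 highest overlapped each other, as did the 2 from set 3 and the 2 lowest.

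**Figure D3:**
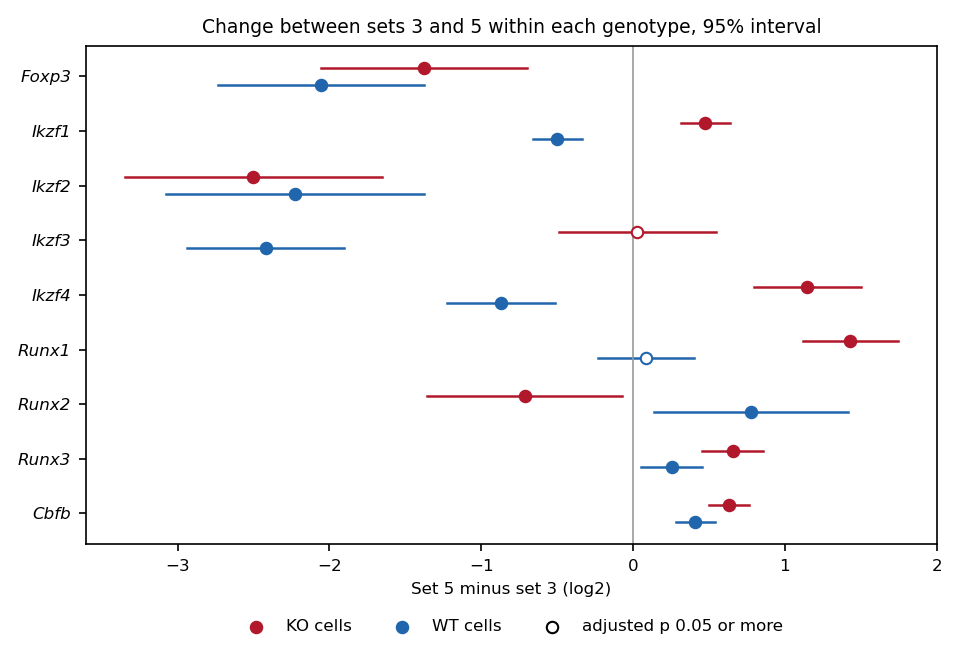
Set 5 minus set 3 difference (log2) with its 95% interval for each gene, KO cells above WT cells; open points have an adjusted p of 0.05 or more. Ikzf1, Ikzf4 and Runx2 changed in opposite directions in the genotypes on this scale, Ikzf3 fell in WT cells and was near 0 in KO cells, and Runx1 was higher in KO cells and near 0 in WT cells.

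The plot of the changes between sets 3 and 5 gathers the comparison within each genotype. Over the 9 genes, 5 were higher and 3 lower in KO set 5 than in KO set 3, while 73.2% of all genes were called, 49.8% higher and 23.4% lower. In WT cells 3 were higher and 5 lower, while 67.6% of all genes were called, 29.3% higher and 38.3% lower. After centring the counts were 4 higher and 3 lower in KO cells and 3 higher and 5 lower in WT cells, with 71.3% and 67.3% of all genes called. Values did not overlap for 7 members in KO cells, against 73.1% of all genes, and for 7 in WT cells, against 72.6%. The difference of the KO effect between sets 5 and 3 was higher for 6 members and lower for 1, Runx2, with 50% of all genes called (43.2% higher and 6.82% lower). After centring it was higher for 4 and lower for 1, with 37.1% of all genes called. Between sets 6 and 3 it was higher for 7 members, with 50.3% of all genes called (46.2% higher and 4.11% lower). After centring it was higher for 2 and lower for 1, with 24.1% of all genes called.

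The 3 Runx genes share a sequence feature near their upstream start sites. RefSeq promoter windows of the GRCm38.p6 build, from 250 bases before to 50 bases after a start site, were given for 6 of the 9 members, 10 windows in all, and Ikzf2, Ikzf3 and Ikzf4 had none. Both strands were searched for the E-box letters CAGCTG and CAGGTG, for TGTGGT as the core bound by Runx proteins and for TGGGAA as the core bound by Ikaros proteins. No 2 of the printed matches overlap. These letters were in 16.3%, 20.2%, 16.8% and 25.6% of all 32851 windows, and either E-box was in 32.9%. The upstream windows of Runx1, Runx2 and Runx3 each hold a pair of copies of TGTGGT on the minus strand of the gene, read as ACCACA on its plus strand, with starts 8 bases apart, and the Runx2 window holds 3 copies in all. This pair, noticed after the windows were read, was in 7 windows in all, 0.0213% of them. The lines below give 30 bases around each pair, 5′ to 3′ on the strand of the gene, with the letters in capitals, because the stretch is shared by the family.
Runx1 (chr16:92826025-92826054, minus strand): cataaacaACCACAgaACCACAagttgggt
Runx2 (chr17:44814583-44814612, minus strand): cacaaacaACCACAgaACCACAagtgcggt
Runx3 (chr4:135120503-135120532, plus strand): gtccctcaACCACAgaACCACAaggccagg

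The pair begins 28 bases after the start site in Runx1 and 23 bases after it in Runx2, and at position -134 in Runx3. The other copy in the Runx2 window is at position -80. The Runx1 window also holds CAGGTG at position -136, and the Runx3 window holds CAGGTG at -233 and TGGGAA at -154. One Foxp3 window holds TGGGAA at position 3 and the other CAGCTG at -219. The windows of Ikzf1 and Cbfb and the second windows of Runx1 and Runx3 held none of the 4 sets of letters. The 250 bases before the upstream Runx1 start site are given since Runx1 was the Runx gene called in both later sets after centring, with CAGGTG in capitals.
Runx1 (chr16:92826075-92826324, minus strand): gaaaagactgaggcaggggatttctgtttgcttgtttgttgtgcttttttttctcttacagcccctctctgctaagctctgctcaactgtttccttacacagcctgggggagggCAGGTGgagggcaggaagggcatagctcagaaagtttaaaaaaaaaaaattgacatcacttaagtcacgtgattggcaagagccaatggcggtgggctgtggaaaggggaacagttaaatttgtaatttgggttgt

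**Figure D4:**
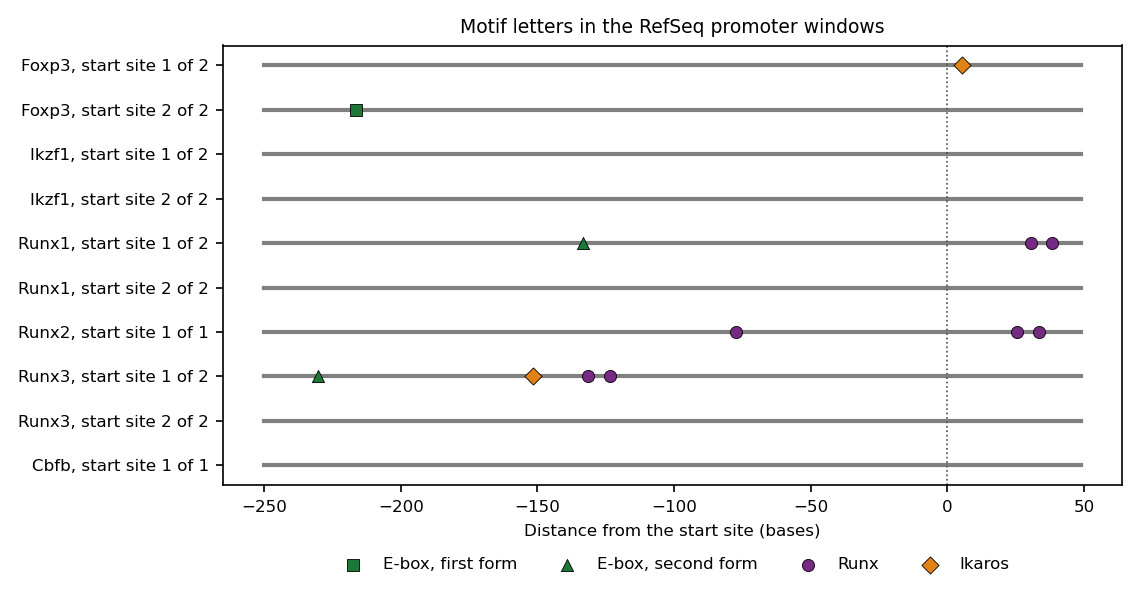
Positions of the matched letters in the 10 RefSeq windows of Foxp3, Ikzf1, Runx1, Runx2, Runx3 and Cbfb, in bases from the start site (dotted line). The paired Runx letters (circles) stand in the upstream windows of Runx1, Runx2 and Runx3, and the windows of Ikzf1 and Cbfb are empty.

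The map of motif letters shows these positions along the windows. A match describes letters in the reference and not binding in these cells.

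Runx1 is the Runx protein needed for early T cell development, and in peripheral CD4 cells it acts with Foxp3 and restrains Il4. Its libraries held 9.92, 9.80 and 9.71 in KO set 3, against 9.42, 9.61 and 9.81 in WT set 3. The KO values of set 5 were 11.20, 11.17 and 11.36, against 9.33, 9.85 and 9.92 in WT cells. The KO values of set 6 were 11.02, 11.01 and 11.24, against 9.99, 10.24 and 10.44 in WT cells. The groups overlapped in set 3, and every KO library lay above every WT library in sets 5 and 6. The difference was 0.20 in set 3 (95% interval -0.12 to 0.51), 1.54 in set 5 (SE 0.15, adjusted p = 3.48e-07) and 0.87 in set 6 (SE 0.15, adjusted p = 0.00012). KO levels were 2.92-fold and 1.82-fold those of WT cells in sets 5 and 6, and the centred differences were 1.15 and 0.45.

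The gain of Runx1 between sets 3 and 5 was in KO cells, 1.43 (SE 0.15, adjusted p = 2.27e-07), while WT cells differed by 0.09 (95% interval -0.23 to 0.40). Between sets 5 and 3 the KO effect differed by 1.35 (SE 0.21, adjusted p = 7.61e-05). It was larger in set 6 than in set 3 by 0.67 (SE 0.21, adjusted p = 0.0148), and by 0.23 after centring, which did not pass. Between sets 6 and 5 WT cells gained 0.53 (SE 0.15, adjusted p = 0.0628), and KO cells differed by -0.15 (95% interval -0.46 to 0.17). With the replicate number as a block within each genotype, fitted to sets 5 and 6 only, the WT gain passed (adjusted p = 0.00157). In that fit the KO effect on Runx1 was smaller in set 6 than in set 5, the difference being -0.68 (blocked SE 0.09, adjusted p = 0.0218). Without the block that difference of KO effects had an adjusted p of 0.363. KO sets 5 and 6 (11.24 and 11.09) overlapped at the top and WT set 6 (10.23) stood alone. KO set 3 (9.81), WT set 5 (9.70) and WT set 3 (9.61) followed, each overlapping the next.

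Runx2, the Runx protein best known from bone and also made by activated and memory T cells, was the member with the largest change in set 3. It measured 9.01, 7.80 and 8.19 in KO libraries of set 3, against 6.33, 6.37 and 6.25 in WT libraries. In set 5 the KO libraries held 7.81, 7.36 and 7.69, against 6.80, 7.14 and 7.33 in WT libraries. In set 6 they held 9.34, 8.14 and 8.92, against 7.49, 7.77 and 8.11 in WT libraries. KO libraries lay above WT libraries in all 3 sets, by a wide gap in set 3 and narrowly in sets 5 and 6. The difference was 2.02 in set 3 (SE 0.30, adjusted p = 0.000498), a 4.06-fold higher level. It was 0.53 in set 5 (95% interval -0.11 to 1.17, adjusted p = 0.144) and 1.01 in set 6 (SE 0.30, adjusted p = 0.00908). The set 6 difference was 0.60 after centring and 0.74 without KO replicate 1, and neither passed.

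In set 3, KO replicate 1 had the highest Runx2 and also the highest level of B cell markers. The 7 B cell markers summed to 251 to 1971 in KO and 74.5 to 170 in WT libraries of set 3. The groups did not overlap, and 5 of the 7 were called higher, against 6.92% of all genes. The 4 erythroid markers measured summed to 3075 to 14110 in KO and 290 to 608 in WT libraries, and the 4 mast cell and basophil markers to 331 to 440 in KO and at most 97.6 in WT libraries. The 4 NK cell markers summed to 455 to 600 in KO and 249 to 323 in WT libraries, and none was called. Zbtb46, the 1 dendritic cell marker measured, was 56.6 to 96.1 in KO and 16.6 to 26.6 in WT libraries and was called higher. The sums of the 2 CD8 T cell markers overlapped (835 to 1102 in KO, 973 to 1178 in WT). Without KO replicate 1 the Runx2 difference was 1.68 and passed. The part of these markers in the set 3 results was not tested.

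The Runx2 means ran KO set 6 (8.80), KO set 3 (8.33), WT set 6 (7.79), KO set 5 (7.62), WT set 5 (7.09) and WT set 3 (6.31). Neighbours overlapped down to KO set 5, and WT set 5 and WT set 3 each stood apart below. Set 5 minus set 3 was -0.71 in KO cells (SE 0.30, adjusted p = 0.0429), with overlapping libraries, and 0.78 in WT cells (SE 0.30, adjusted p = 0.0319). In leave-one-out fits the KO call was lost in 9 of 18, with differences of -0.98 to -0.38. They were those without KO set 3 replicate 1 or 3, KO set 5 replicate 2 or 3, KO set 6 replicate 3, WT set 3 replicate 1 or 2, WT set 5 replicate 2 or WT set 6 replicate 2. The WT call was lost in 5 of 18, each without a WT library of set 3 or without WT set 5 replicate 2 or 3, with 0.66 to 0.92. The KO effect was smaller in set 5 than in set 3, the difference being -1.49 (SE 0.43, adjusted p = 0.00842), and set 6 minus set 3 was -1.01 (adjusted p = 0.0596), or -1.45 after centring, which passed. The uncentred set 6 minus set 3 value also passed without KO set 3 replicate 2, KO set 6 replicate 1 or WT set 6 replicate 1, with values of -1.28 to -0.67 over all leave-one-out fits. Set 6 was higher than set 5 by 1.18 in KO cells (SE 0.30, adjusted p = 0.0209) and by 0.70 in WT cells (adjusted p = 0.233). The KO call was lost without KO set 5 replicate 2 or 3 or KO set 6 replicate 1 or 3 (0.91 to 1.51). Both passed with the replicate block within each genotype, fitted to sets 5 and 6 only (adjusted p = 0.00146 in KO cells and 0.0199 in WT cells).

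Runx3 is the Runx protein of cytotoxic and Th1 cells, where it works with T-bet on Ifng and Il4. It measured 10.82, 10.48 and 10.80 in KO set 3, against 10.51, 10.55 and 10.81 in WT set 3. KO set 5 held 11.34, 11.43 and 11.30, against 10.80, 10.82 and 11.01 in WT set 5. KO set 6 held 11.36, 11.32 and 11.25, against 10.84, 10.91 and 10.85 in WT set 6. The set 3 groups overlapped, and the KO libraries of sets 5 and 6 lay above all WT libraries of their set. The difference was 0.08 in set 3 (95% interval -0.12 to 0.28), 0.48 in set 5 (SE 0.09, adjusted p = 0.000412) and 0.44 in set 6 (SE 0.09, adjusted p = 0.00081). After centring the set 5 and set 6 differences were 0.09 and 0.03 and did not pass, which places Runx3 close to the median of all genes.

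Runx3 was higher in set 5 than in set 3 in both genotypes, by 0.66 in KO cells (SE 0.09, adjusted p = 1.04e-05) and by 0.25 in WT cells (SE 0.09, adjusted p = 0.0262). The WT call was lost without WT set 3 replicate 1 or 2 or WT set 5 replicate 3, with values of 0.19 to 0.35. The KO effect was larger in set 5 than in set 3 by 0.40 (SE 0.13, adjusted p = 0.0204) and in set 6 than in set 3 by 0.37 (SE 0.13, adjusted p = 0.0319). Relative to all genes these values were -0.01 and -0.07, and neither passed. The first was lost without KO set 3 replicate 2, WT set 3 replicate 3 or WT set 5 replicate 1 (0.29 to 0.47), and the second without any of 6 libraries, namely KO set 3 replicate 2, KO set 6 replicates 1 and 2, WT set 3 replicate 3 and WT set 6 replicates 1 and 3 (0.26 to 0.43). Set 6 and set 5 did not differ detectably, with -0.04 in KO cells (95% interval -0.25 to 0.16) and -0.01 in WT cells (-0.21 to 0.19). The 6 groups formed 3 overlapping pairs, KO sets 5 and 6 (11.36 and 11.31), WT sets 5 and 6 (10.88 and 10.87) and KO and WT set 3 (10.70 and 10.62).

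Cbfb is the common partner that stabilises Runx proteins on DNA. It measured 12.80, 12.69 and 12.79 in KO set 3, against 12.54, 12.69 and 12.64 in WT set 3. KO set 5 held 13.39, 13.38 and 13.39, against 13.01, 13.09 and 13.01 in WT set 5. KO set 6 held 13.60, 13.46 and 13.66, against 12.98, 13.13 and 13.10 in WT set 6. The KO libraries lay above the WT libraries in all 3 sets, in set 3 by less than the rounding shown. The difference was 0.14 in set 3 (adjusted p = 0.167), 0.36 in set 5 (SE 0.06, adjusted p = 0.000115) and 0.50 in set 6 (SE 0.06, adjusted p = 5.16e-06). Centred differences were -0.03 in set 5 and 0.09 in set 6, neither of which passed, as for Runx3. The group means ran KO set 6 (13.57), KO set 5 (13.39), WT set 6 (13.07), WT set 5 (13.03), KO set 3 (12.76) and WT set 3 (12.62), and of the neighbours only WT sets 6 and 5 overlapped.

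Set 5 was higher than set 3 in Cbfb by 0.63 in KO cells (SE 0.06, adjusted p = 1.07e-07) and by 0.41 in WT cells (SE 0.06, adjusted p = 1.96e-05). Its KO effect was larger in set 5 than in set 3 by 0.22 (SE 0.09, adjusted p = 0.0448) and in set 6 than in set 3 by 0.36 (SE 0.09, adjusted p = 0.0027). On the centred scale both were negative, -0.19 and -0.08, and did not pass. The set 5 test was lost in 11 of the 18 leave-one-out fits, all but those without KO set 3 replicate 1, KO set 6 replicate 2 or 3, WT set 3 replicate 1, WT set 5 replicate 2 or WT set 6 replicate 1 or 2, with values of 0.19 to 0.26.

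Between sets 6 and 5 few members were called without a replicate block, and more with a block within each genotype. Without the block, in KO cells 2 members were called, Runx2, which was higher, and Ikzf1, with -0.28 (SE 0.08, adjusted p = 0.0269), while 12% of all genes were called. In WT cells 1 was called, Foxp3, while 3.37% of all genes were called. The Ikzf1 call was lost without KO set 5 replicate 1 or 3 or KO set 6 replicate 1 or 3, with values of -0.36 to -0.20. Values did not overlap for 3 members in KO cells, against 29.6% of all genes, and for 4 in WT cells, against 28.2%. No member differed in its KO effect between sets 6 and 5 by limma, while 0% of all genes were called. At an unadjusted p under 0.05 there were 2 members, Ikzf1 and Runx1, against 10.5% of all genes, and the fits with no variance trend and with robust moderation called 0 members.

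Same-numbered libraries of sets 6 and 5 deviated together from their group means. A fit to sets 5 and 6 only, with the replicate number as a block within each genotype, was chosen after the data were seen. It called 5 members in KO cells, against 27.7% of all genes. They were Ikzf2, Runx2 and Cbfb (0.18, blocked SE 0.05), which were higher, and Ikzf1 and Ikzf3 (-0.34, blocked SE 0.06), which were lower. In WT cells 6 were called, against 13.6% of all genes, with Ikzf2, Ikzf4 (0.40, blocked SE 0.09), Runx1 and Runx2 higher and Foxp3 and Ikzf3 (-0.28, blocked SE 0.06) lower. For the difference of the KO effects 1 was called, Runx1, against 4.06% of all genes.

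Genes linked to the members were counted in 5 lists. Of 26 genes that control or bind Foxp3, 1 was higher and 4 lower in KO cells of set 3, 23 were higher in set 5 and 20 in set 6. Of all genes, 6.92%, 50.1% and 53.9% were higher in sets 3, 5 and 6, and 4.46% were lower in set 3. After centring these counts were 1 higher and 3 lower, 15 higher, and 7 higher and 1 lower. Over all genes 10.6% were then called in either direction in set 3, while 24.9% were higher in set 5 and 18.8% in set 6. The median KO minus WT difference of this list was -0.05, 0.72 and 0.66 in sets 3, 5 and 6, against -0.07, 0.39 and 0.42 for all genes. Gata3, the Th2 lineage factor, was higher in all 3 sets, by 0.73 (SE 0.11), 2.52 (SE 0.11) and 2.40 (SE 0.11). Irf4, a factor of activated and effector T cells, was higher by 2.18 (SE 0.10) in set 5 and 1.83 (SE 0.10) in set 6. Satb1, a chromatin organiser of developing T cells, was higher by 1.31 (SE 0.09) and 1.16 (SE 0.09) in these sets. In KO cells of set 3, Bach2 fell by 0.70 (SE 0.18) and Foxp1, a factor of quiescent T cells, fell by 0.68 (SE 0.19).

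Of 23 regulatory T cell genes, 9 were higher and 2 lower in KO cells of set 3, 15 and 2 in set 5, and 16 and 2 in set 6. The shares of all genes were 6.92% higher and 4.46% lower in set 3, 50.1% and 8.08% in set 5, and 53.9% and 4.59% in set 6. Centring gave 10 and 2, 13 and 2, and 14 and 4, with 10.6%, 49.6% and 37.2% of all genes called in either direction. The list medians were 0.46, 0.97 and 1.04 in sets 3, 5 and 6, against the medians of all genes given above. Itgae, which encodes the integrin CD103, was higher by 2.85 (SE 0.42), 3.86 (SE 0.42) and 3.48 (SE 0.42). Ctla4, an inhibitory receptor, averaged 13.42 in KO and 11.42 in WT cells of set 5 (adjusted p = 2.49e-06). Entpd1, which encodes the ectonucleotidase CD39, was higher by 2.72 (SE 0.25) in set 3, and Gpr83 fell by 1.51 (SE 0.23) there. Fgl2 was higher by 1.97 (SE 0.23) in set 3, fell by 1.30 (SE 0.23) in set 5 and fell by 1.35 (SE 0.23) in set 6.

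Of 17 corepressor subunits recruited by Ikaros proteins, 1 was higher and 1 lower in set 3, and 14 were higher in set 5 and 14 in set 6. Of all genes 6.92% were higher and 4.46% lower in set 3, and 50.1% and 53.9% were higher in sets 5 and 6. After centring 1 was higher in set 3, 7 were higher and 4 lower in set 5, and 5 higher and 3 lower in set 6. Centred calls covered 10.6%, 49.6% and 37.2% of all genes in sets 3, 5 and 6. List medians were -0.09, 0.49 and 0.44, against -0.07, 0.39 and 0.42 for all genes. Chd3, a remodeller subunit of the NuRD complex, fell by 0.30 (SE 0.09) in set 3 and was higher by 1.11 (SE 0.09) in set 5. Gatad2b, another NuRD subunit, was higher by 0.96 (SE 0.09) in set 5.

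Of 12 cofactors of Runx proteins, 1 was lower in set 3, Ets1, and 9 were higher in set 5 and 9 in set 6. After centring 7 were higher and 1 lower in each of sets 5 and 6. Of all genes 4.46% were lower in set 3, and 50.1% and 53.9% were higher in sets 5 and 6. After centring 24.9% and 18.8% were higher in sets 5 and 6. The list medians were -0.13, 1.03 and 0.78. Ets1, which binds DNA beside Runx proteins, fell by 0.37 (SE 0.10) in set 3 and was higher by 1.13 (SE 0.10) and 1.21 (SE 0.10) in sets 5 and 6. Tle1, a Groucho corepressor, was higher by 1.80 (SE 0.23) and 1.84 (SE 0.23) in sets 5 and 6, and Kmt2a, a histone methyltransferase, by 1.18 (SE 0.13) and 1.06 (SE 0.13).

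Of 16 genes known as targets of Runx factors in T cells, 6 were higher and 1 lower in set 3, 8 were higher in set 5, and 5 were higher and 1 lower in set 6. Higher calls covered 6.92%, 50.1% and 53.9% of all genes, and lower calls 4.46%, 8.08% and 4.59%. Centred counts were 6 and 1, 6 and 1, and 3 and 1, with 24.9% of all genes higher in set 5 and 18.8% in set 6. The list medians were 0.06, 0.36 and 0.16. Cd4, which a Runx silencer shuts off in cytotoxic cells, fell by 0.64 (SE 0.12) in set 3 and was higher by 0.79 (SE 0.12) and 0.91 (SE 0.12) in sets 5 and 6. The largest changes in set 3 were Il4 (4.71, SE 0.46) and Csf2, which encodes GM-CSF (4.03, SE 0.43). Gzmb, a cytotoxic granule protease, was higher by 1.87 (SE 0.26) in set 3. Tgfbr2 was higher by 1.06 (SE 0.11) and 0.64 (SE 0.11) in sets 5 and 6, the last not after centring, and Klf2 fell by 0.60 (SE 0.16) in set 6.

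The genes with the most similar profiles were found by the root mean square distance over the 18 libraries, each gene centred on its own mean, among 9803 genes with a mean of 6 or more. The nearest gene to Ikzf3 was Izumo1r, which encodes the folate receptor 4 of regulatory and activated T cells, at a distance of 0.39, against a median of 1.31 over all candidates. Izumo1r averaged 11.15 in KO and 8.65 in WT cells of set 5, and 11.42 in both genotypes of set 3. Sidt1 (0.41) and Pmepa1 (0.45) followed. Nearest to Ikzf4 was Gpr132 (0.20), to Runx1 Tgoln1 (0.16), to Ikzf1 Pcgf5 (0.14), to Runx3 Cog4 (0.085) and to Cbfb Actr3 (0.060). The nearest gene was Pogk for Foxp3 (0.47), Itga4 for Ikzf2 (0.42) and Rora for Runx2 (0.33). All these distances share the same libraries and are given as descriptions.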

How the data were processed

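RNA-seq of 18 libraries, 3 in each of 6 groups, was analysed. The deposited values are on a log2 scale, per the file headers and their range; the submitters' processing notes name the GRCm39 assembly, limma, edgeR and Salmon 1.9.0, with no role for any of them. Poly(A) RNA was made into strand-specific libraries, per the labels' protocols. Within groups the sorted values were nearly identical, so depth is unknown and spread is compressed. A second deposited table gives the authors' log2 fold changes and p-values. Its deposited score column was not used.

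Here, limma 3.58.1 in R 4.3.3 fitted 6 group means to all 12547 genes, with a variance trend and 12 residual degrees of freedom, and adjusted p over all genes. The test was checked on simulated data. Alternatives were median centring, quantile normalization, 1 added on the linear scale, a mean log2 filter of 6, no trend and robust moderation. Further ones were a minimum fold of 1.2, only the groups compared, a replicate block over all libraries, and leaving out each library. A replicate block within each genotype, fitted to sets 5 and 6 only, was added after the data were seen. Replicate numbers were taken to pair libraries where every same-numbered correlation of deviations exceeded 0.1. From the data only, this held between sets 6 and 5 (0.22 to 0.34 in KO, 0.12 to 0.16 in WT cells). It did not hold between KO and WT cells or between sets 5 and 3. For sets 5 and 3 same-numbered correlations were 0.025 to 0.15 in KO and 0.069 to 0.074 in WT cells. Those of unlike numbers were -0.15 to 0.061 in KO and -0.049 to -0.030 in WT cells. A weaker pairing of sets 5 and 3 would fall below this rule, and no block within each genotype was fitted to them. All 9 members are named, with the 3 nearest genes of each considered and, from each list, called genes of smallest adjusted p. The members, lists and tests were chosen with earlier results of these data known.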

Additional observations from a re-analysis of the deposited data

Results flagged for a closer look

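The KO minus WT difference changed between sets for several members by the test of that change itself (limma, adjusted p under 0.05 over all genes). From set 3 to set 5 the change in the KO effect was 2.45 for Ikzf3, 2.02 for Ikzf4, 1.35 for Runx1, 0.98 for Ikzf1, 0.40 for Runx3 and 0.22 for Cbfb, and -1.49 for Runx2. From set 3 to set 6 it was 2.39 for Ikzf3, 1.53 for Ikzf4, 1.25 for Foxp3, 0.67 for Runx1, 0.63 for Ikzf1, 0.37 for Runx3 and 0.36 for Cbfb. The median change over all genes was 0.42 and 0.45. Groups of 3 libraries were not searched for outlying samples.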

How the results depend on the processing

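Over 90 results (9 members in 10 comparisons) and 28 settings, 2266 of 2457 repeats kept the direction and the side of the threshold, 124 no longer passed, 25 newly passed and 42 changed sign. The members called in set 6 numbered 4 with median centring and with quantile normalization, and for the KO effect in set 6 minus set 3 they numbered 3 with centring, quantile normalization or a minimum fold of 1.2. Signs that turned under centring, with quantile normalization second where it turned too, were those of Ikzf1 (-0.21, -0.20), Ikzf2 (-0.30, -0.43) and Cbfb (-0.033) for KO against WT in set 5. For the KO effect they were Runx3 (-0.013, -0.040) and Cbfb (-0.19, -0.17) in set 5 minus set 3, and Runx3 (-0.070, -0.11) and Cbfb (-0.075, -0.11) in set 6 minus set 3. Between sets they were Ikzf3 in KO cells, set 5 against set 3 (-0.35, -0.32), and Ikzf1 (-0.0061) and Cbfb (-0.036, -0.012) in WT cells, set 6 against set 5. These settings remove the shift of all genes by construction.

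For KO cells of set 6 against set 5 the count was 0 with the minimum fold or only the groups compared, and 5 with the replicate block within each genotype. For WT cells it was 0 with 1 added, no trend, robust moderation or the minimum fold, 2 with the replicate block or only the groups compared, and 6 with the block within each genotype. The difference of KO effects between sets 6 and 5 gave 1 with that block. Replicate numbers did not pair KO with WT libraries (r from -0.08 to 0.18); there the replicate block made Ikzf1 in set 6 (-0.17) and the Runx2 effect in set 6 minus set 3 (-1.01) pass and changed no other call of a member in KO against WT, in the differences of KO effects or in set 5 against set 3.

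Without 1 library each, the counts of members called ran from 2 to 2, 5 to 6 and 6 to 8 for KO against WT in sets 3, 5 and 6, 5 to 7 for both differences of the KO effect from set 3, 0 to 0 for set 6 minus set 5, 7 to 8 in KO and 6 to 8 in WT cells for set 5 against set 3, and 0 to 3 in KO and 0 to 1 in WT cells for set 6 against set 5. Values that crossed 0 were those of Foxp3 in set 3 (-0.35 to 0.15), of Ikzf2 in sets 3, 5 and 6 (-0.017 to 0.69, -0.30 to 0.41, -0.55 to 0.26), in set 5 minus set 3 (-0.67 to 0.11) and in set 6 minus set 5 (-0.64 to 0.18), of Ikzf3 and Runx3 in set 6 minus set 5 (-0.33 to 0.23, -0.10 to 0.0042), of Ikzf3 in KO and Runx1 in WT cells, set 5 against set 3 (-0.13 to 0.30, -0.025 to 0.27), and of Ikzf4 in KO and Runx3 in WT cells, set 6 against set 5 (-0.25 to 0.036, -0.048 to 0.057). None of these had passed the test. Depth is unknown, so no limit from counting can be given.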
